A study of Rattus norvegicus with 70 samples.

Results

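The collagen genes were taken from the 6 deposited count tables as every gene whose rat symbol is Col, a number, the letter a and a second number. The rule found 27 of 15319 genes. By the structure of the proteins they encode, 10 were fibrillar (Col1a1, Col1a2, Col2a1, Col3a1, Col5a1, Col5a2, Col5a3, Col11a1, Col11a2 and Col27a1) and 3 belonged to the basement membrane class (Col4a1, Col4a3 and Col4a4). The remainder were 2 beaded filament genes (Col6a2 and Col6a4), 1 network-forming gene (Col8a1), 4 fibril-associated or FACIT genes (Col9a1, Col9a2, Col14a1 and Col16a1), 2 multiplexin genes (Col15a1 and Col18a1), 3 transmembrane genes (Col13a1, Col17a1 and Col23a1) and 2 others (Col7a1 and Col26a1). Other collagen chains, among them Col4a2, Col6a1, Col6a3 and Col12a1, were not analysed here.

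Collagens are triple helices of 3 chains that cells secrete into the extracellular matrix. Fibrillar chains are trimmed outside the cell, align into fibrils and are crosslinked by lysyl oxidases, while type IV chains build the sheet-like basement membrane that surrounds each adipocyte and blood vessel. FACIT and multiplexin collagens sit on the surface of fibrils and basement membranes, and the transmembrane collagens stay in the plasma membrane. In adipose tissue fibroblasts and progenitors are known as the main source of fibrillar collagen, and adipocytes make much of their own basement membrane.

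The 24 Sprague-Dawley rats gave RNA from 3 fat depots, brown (BAT), subcutaneous (SAT) and visceral (VAT). There were 70 libraries in 12 groups of 6, except for 5 libraries each of sham SAT from even-numbered rats and PCB 52 VAT from odd-numbered rats. Sham rats carried the numbers 1 to 12 and rats that inhaled the polychlorinated biphenyl PCB 52 the numbers 13 to 24. In both arms the even-numbered rats were labelled female and began exposure at 42 days of age, and the odd-numbered rats were labelled male and began at 39 days, so labelled sex and age at start cannot be told apart. Exposure, to PCB 52 or sham, was nose-only, with 4 h a day on 28 days and an air flow of 12 L/min. It followed arrival at an age of 28 days and an acclimation period of 8 days. Levels are given as CPM scaled by the trimmed mean of M-values (TMM), that is, reads of a gene relative to the scaled library sizelibrary size, which compare a gene between libraries and not with other genes. Total counts ran from 4604116 to 9707132 per library.

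Brown adipocyte markers summed to between 6118 and 17040 TMM CPM in sham BAT and to between 19.45 and 786.4 in the other sham libraries, with Elovl3 at 0 throughout even-numbered sham BAT and Ucp1 at 0 throughout odd-numbered sham VAT. SAT also held transcripts of the mammary epithelial, chondrocyte and skeletal muscle marker lists. Which tissues these came from was not tested. BAT held skeletal muscle transcripts in amounts that differed widely between libraries. Of the 8 libraries that stood apart, SAT of rat 8 had 563 of 10175 expressed genes at 0 reads. VAT of rat 13, labelled male, had 239 of 361 expressed genes of chromosome 9, 256 of 263 of chromosome X and 2 of 2 of chromosome Y at 0. VAT of rats 11, 13 and 23 carried transcripts of the male reproductive tract, VAT of rat 4 brown adipocyte transcripts, and VAT of rat 8, labelled female, some reads of Y-linked genes. Brown adipocyte markers also summed to 397.7 in VAT of rat 8, against 62.85 to 100.3 in rats 2, 6, 10 and 12. Its skeletal muscle sum was 1013, against 22.93 to 29.37 in the other libraries of its group. BAT of rat 24 had fibroblast markers summing to 5028 TMM CPM, against 1179 to 1737 in the other PCB 52 libraries of its group. Its brown adipocyte markers summed to 401.4, against 8769 to 14820 in those libraries, and its skeletal muscle sum, 48560, was the highest of the group. SAT of rat 19 had the lowest adipocyte sum of its group, 2014. SAT of sham rat 11 had a lower adipocyte sum, 1721, and was not among the 8. In these bulk tissues fewer cells of a type and less RNA per cell cannot be told apart.

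Transcripts of the 27 collagen genes took the largest part of the library in SAT. In even-numbered sham rats the 27 genes held 1.39% ± 0.706 of all counts in BAT (SD, n = 6), 3.25% ± 1.59 in SAT (n = 5) and 1.79% ± 0.472 in VAT (n = 6). Odd-numbered sham rats had 2.38% ± 0.749 in BAT, 5.81% ± 3.13 in SAT and 2.37% ± 0.664 in VAT (n = 6 each). The mixture of classes differed as well. Fibrillar genes made up 90.6% ± 3.57 of the counts on the 27 genes in even-numbered SAT and 65.6% ± 3.38 in even-numbered VAT. Basement membrane genes made up 2.42% ± 0.882 and 16.8% ± 3.57 of these counts, and multiplexins 1.40% ± 1.13 and 9.08% ± 1.29. Chains not analysed here, such as Col4a2, Col6a1 and Col6a3, do not enter these shares, which are therefore not shares of all collagen transcripts. In even-numbered rats the fibrillar share of BAT, 79.8% ± 6.21, lay between those of the other depots. The fibrillar share of BAT in odd-numbered rats was 88.0% ± 2.67, and those of their SAT and VAT are not given here.

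The depots of sham rats were compared gene by gene with edgeR's quasi-likelihood test over all genes, and a gene was called at a Benjamini-Hochberg adjusted p below 0.05. Between BAT and SAT, 10 of 22 tested collagen genes were called in even-numbered rats (2 higher and 8 lower in BAT), against 38.3% of all genes tested. In odd-numbered rats 16 of 22 were called (4 higher and 12 lower in BAT), against 57.4% of all genes. Between BAT and VAT, 11 of 19 were called in even-numbered rats (3 higher and 8 lower in BAT; 50.7% of all genes), and 13 of 20 in odd-numbered rats (4 higher and 9 lower in BAT; 54.6% of all genes). Between SAT and VAT, 15 of 23 were called in even-numbered rats (9 higher and 6 lower in SAT; 30.7% of all genes), and 8 of 23 in odd-numbered rats (6 higher and 2 lower in SAT; 11.9% of all genes). Without SAT of rat 8 the number of all genes called rose from 4348 to 6700 for BAT against SAT and from 3544 to 5860 for SAT against VAT in even-numbered rats.

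**Figure D1:**
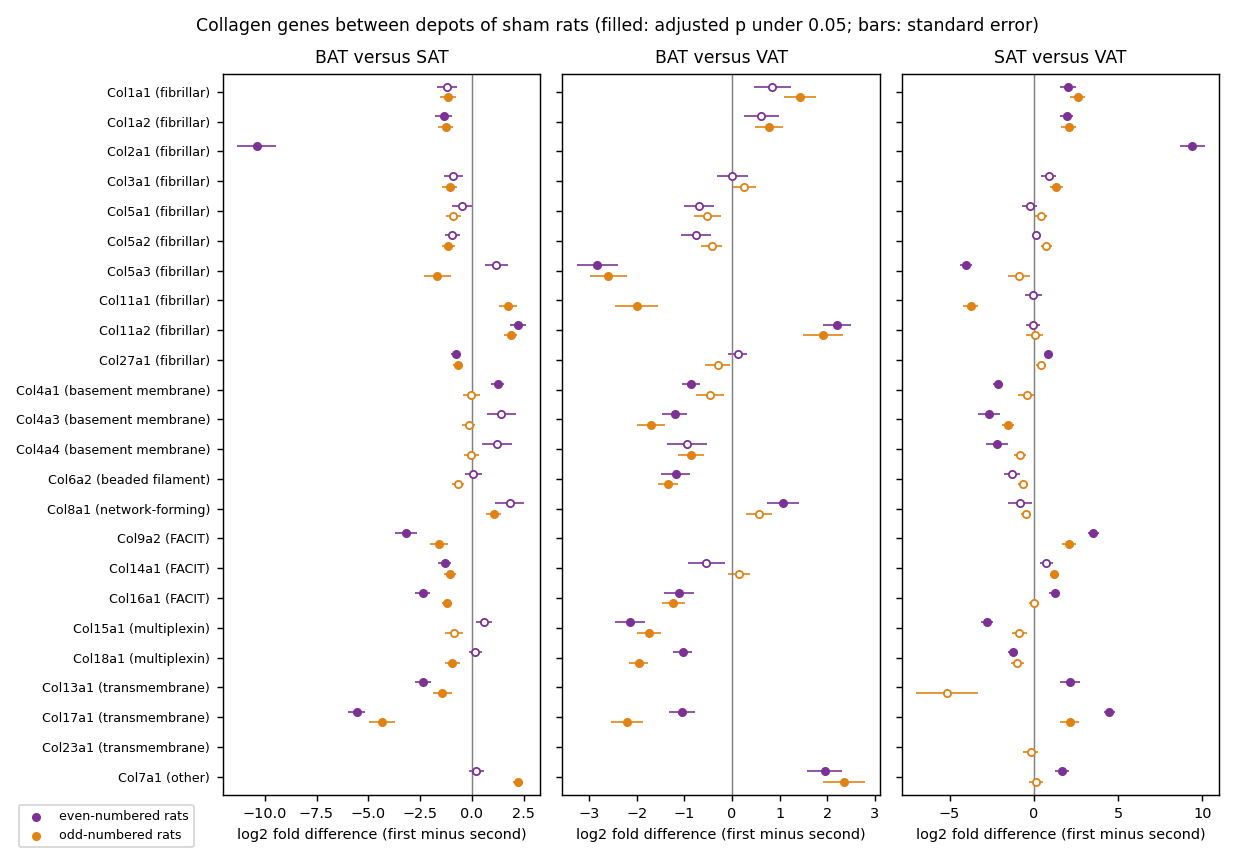
Log2 fold difference (x axis, first depot minus second) of each collagen gene tested (y axis, with its class) between depots of sham rats, purple for even-numbered and orange for odd-numbered rats. Bars are standard errors and filled points passed an adjusted p of 0.05; the Col2a1 point in BAT versus SAT is a fitted value against a group at 0 reads and is no measured fold. Col1a1 and Col1a2 were higher in SAT than in VAT in both sets of rats, and Col15a1 and Col5a3 were higher in VAT than in BAT in both.

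The median log2 difference of the tested collagen genes, BAT minus SAT, was −0.61 in even-numbered and −0.92 in odd-numbered rats, beside −0.14 and −0.07 for all genes. BAT minus VAT gave −0.76 and −0.50, beside −0.04 and −0.08. SAT minus VAT gave 0.15 and −0.02, beside 0.09 and −0.01.

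Col1a1 and Col1a2 encode the chains of type I collagen, the main fibril of most connective tissue. Col1a1 stood at 9760, 9483, 2043, 8889 and 5274 TMM CPM in SAT of even-numbered sham rats 2, 6, 8, 10 and 12. It ran from 651 to 2702 (median 1780) in their VAT and from 1218 to 5640 (median 3067) in their BAT. SAT of rat 8 was the low library of its group and the only one below the highest VAT library. The log2 difference SAT minus VAT was 2.02 (SE 0.458, adjusted p = 0.00621, edgeR). In odd-numbered rats Col1a1 ran from 6668 to 30360 (median 15070) in SAT, from 4780 to 11850 (median 7159) in BAT and from 1208 to 4384 (median 3157) in VAT. VAT did not overlap with either of the other depots there, and SAT overlapped with BAT. SAT minus VAT was 2.59 (SE 0.47, adjusted p = 0.00628, edgeR), and BAT minus VAT was 1.43 (SE 0.329, adjusted p = 0.00216). BAT minus SAT was −1.14 (SE 0.387, adjusted p = 0.0231), a call that was lost without BAT of rat 1, 3 or 11 or SAT of rat 5 or 9, with an adjusted p of up to 0.0634.

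**Figure D2:**
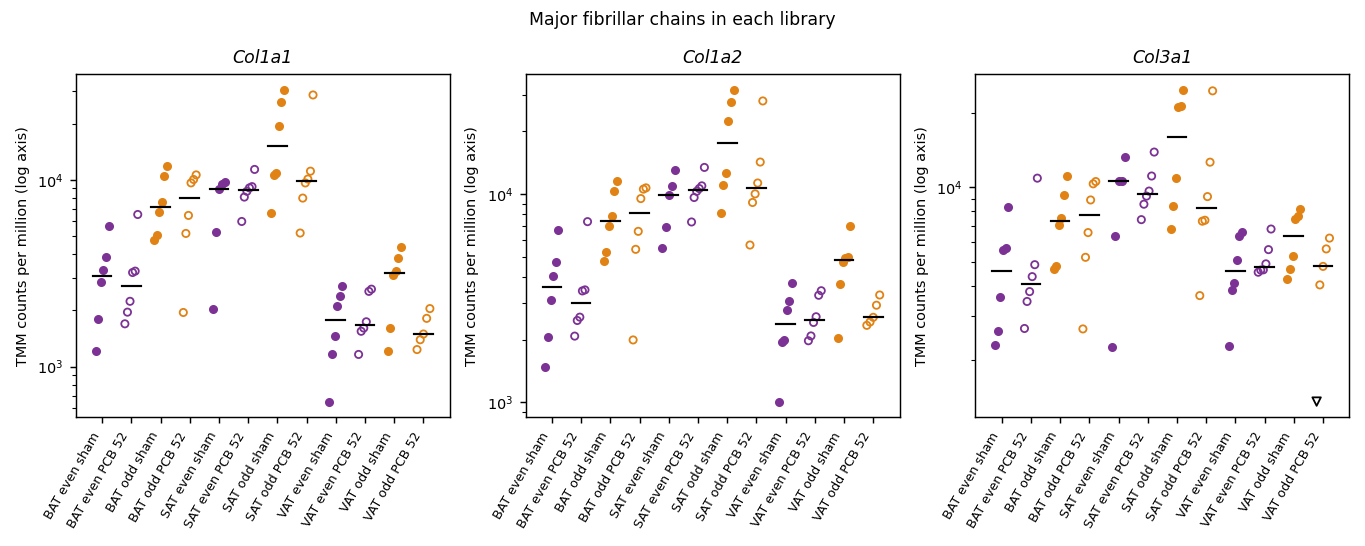
TMM CPM of Col1a1, Col1a2 and Col3a1 (y axes, logarithmic) in each library of the 12 groups (x axes); filled points are sham, open points PCB 52, purple even-numbered and orange odd-numbered rats, and lines are group medians. The open triangle marks VAT of rat 13, at 0 reads for Col3a1. For Col1a1 the odd-numbered sham rats lie between 6668 and 30360 in SAT and between 1208 and 4384 in VAT.

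Col1a2 followed the same order of depots. It ran from 1009 to 3722 TMM CPM (median 2387) in VAT of even-numbered sham rats, against 10960, 9892, 5489, 13030 and 6941 in SAT of rats 2, 6, 8, 10 and 12, without overlap. For SAT minus VAT the log2 value was 1.94 (SE 0.36, adjusted p = 0.00184, edgeR) in even-numbered and 2.06 (SE 0.425, adjusted p = 0.0116) in odd-numbered rats. For BAT minus SAT the log2 value was −1.35 (SE 0.406, adjusted p = 0.0205) in even-numbered rats, where the call was lost without SAT of rat 10 (adjusted p = 0.0513), and −1.26 (SE 0.369, adjusted p = 0.0109) in odd-numbered rats. BAT minus VAT reached the threshold in odd-numbered rats at 0.78 (SE 0.288, adjusted p = 0.034) and lost it without BAT of rat 5 or 9 or VAT of rat 1, 5 or 7, with an adjusted p of up to 0.0824. The promoter of Col1a2 is shown as that of a fibrillar chain called between SAT and VAT in both sets of rats. The window, from RefSeq on GRCr8, runs from 250 bases before to 50 bases after the annotated start at chr4:33518307-33518606, plus strand, with a CCAAT box (found as its reverse complement) and a TATAAA box in capitals.
Col1a2 promoter: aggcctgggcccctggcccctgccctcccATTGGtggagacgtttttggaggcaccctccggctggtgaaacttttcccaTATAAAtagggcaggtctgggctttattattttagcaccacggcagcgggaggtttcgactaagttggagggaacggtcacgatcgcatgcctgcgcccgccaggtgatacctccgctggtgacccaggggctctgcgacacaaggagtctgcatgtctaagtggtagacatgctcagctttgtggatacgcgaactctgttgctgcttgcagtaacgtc
A promoter window was found for 22 of the 27 genes. On either strand TATAAA was present in 3 of these and in 14.2% of all 33469 windows, CCAAT in 6 and in 37.5%, and the GC box GGGCGG in 12 and in 33.1%.

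Col3a1, the chain of type III collagen that mixes into type I fibrils, differed less between depots. Its level in VAT of odd-numbered sham rats ran from 4251 to 8156 TMM CPM (median 6338), in BAT from 4657 to 11140 (median 7285) and in SAT from 6786 to 24860 (median 16000). All 3 depots overlapped. SAT minus VAT was 1.34 (SE 0.383, adjusted p = 0.0411, edgeR). This call was lost without SAT of rat 3, 5 or 9 or any single VAT library, VAT of rat 11 included (adjusted p = 0.0582), with an adjusted p of up to 0.0806. BAT minus SAT was −1.05 (SE 0.362, adjusted p = 0.0244) and was lost without the same 5 libraries as for Col1a1, with an adjusted p of up to 0.0667. In even-numbered rats no depot difference of Col3a1 passed, with BAT minus SAT at −0.89 (SE 0.468, adjusted p = 0.155) and SAT minus VAT at 0.87 (SE 0.426, adjusted p = 0.141).

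The type V chains, which set the width of type I fibrils, gave few calls apart from Col5a3. Col5a1 passed in no depot comparison, with log2 differences from −0.89 to 0.39. Col5a2 passed in 1, BAT minus SAT in odd-numbered rats, at −1.15 (SE 0.313, adjusted p = 0.00764, edgeR). Col5a3, the third chain, ran from 1377 to 1909 TMM CPM (median 1775) in VAT of even-numbered sham rats and from 89.9 to 661 (median 172) in their BAT. In SAT it stood at 206, 66.4, 66.5, 106 and 82.2 in rats 2, 6, 8, 10 and 12. VAT was higher than either other depot without overlap: SAT minus VAT was −4.04 (SE 0.35, adjusted p = 1.46e-05), and BAT minus VAT was −2.83 (SE 0.435, adjusted p = 0.000201), or −3.42 without BAT of rat 4, the high BAT library. In odd-numbered rats BAT minus VAT was −2.60 (SE 0.398, adjusted p = 8.37e-05), while SAT minus VAT was −0.90 and did not pass (SE 0.66, adjusted p = 0.366).

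SAT of odd-numbered sham rats was split for Col5a3: rats 3, 5, 7 and 9 stood at 733, 778, 587 and 1124 TMM CPM and rats 1 and 11 at 70.3 and 58.1. Summed adipocyte markers were 16210, 13720, 15280 and 17070 in the first 4 and 3001 and 1721 in rats 1 and 11, and the epithelial sum, mostly of milk protein genes, was 272000 and 205900 in rats 1 and 11 against 11.24 to 84180 in the others. SAT of even-numbered sham rats differed from this. There rat 2 had the lowest adipocyte sum (2357) and the highest Col5a3 (206.0), and rat 8 had the highest adipocyte sum (21450). The part of adipocytes and epithelium in the collagen levels was not tested. BAT minus SAT for Col5a3 in odd-numbered rats was −1.67 (SE 0.636, adjusted p = 0.0395, edgeR). The call was lost under the replicate block (adjusted p = 0.119), with no expression filter (0.0609) and without BAT of rat 1, 3, 7, 9 or 11 or SAT of rat 3, 5, 7 or 9, with a leave-one-out adjusted p of up to 0.102.

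Among the minor fibrillar chains, Col11a2 was highest in BAT. It ran from 13.9 to 34.1 TMM CPM (median 25.2) in BAT of even-numbered sham rats and from 3.31 to 8.12 (median 5.28) in VAT, with 3.65, 6.10, 1.54, 7.18 and 7.26 in SAT of rats 2, 6, 8, 10 and 12. BAT did not overlap with the other depots in either set of rats. The difference BAT minus SAT was 2.22 (SE 0.389, adjusted p = 0.000884, edgeR) and 1.87 (SE 0.308, adjusted p = 0.000259) in even- and odd-numbered rats, and BAT minus VAT 2.20 (SE 0.292, adjusted p = 7.1e-05) and 1.91 (SE 0.425, adjusted p = 0.00168). Col11a1, its partner in type XI collagen, was highest in VAT of odd-numbered sham rats, at 4.99 to 24.3 (median 14.6), against 1.77 to 8.22 (median 2.26) in BAT and 0.414 to 1.42 (median 1.10) in SAT. SAT overlapped with neither. There SAT minus VAT was −3.73 (SE 0.446, adjusted p = 0.000336), BAT minus VAT −2.0045 (SE 0.455, adjusted p = 0.00194) and BAT minus SAT 1.73 (SE 0.426, adjusted p = 0.00407).

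Col27a1, a fibrillar chain of cartilage, was lower in BAT than in SAT by small steps of −0.76 (SE 0.25, adjusted p = 0.0307, edgeR) in even-numbered and −0.68 (SE 0.231, adjusted p = 0.0229) in odd-numbered rats, and SAT minus VAT was 0.84 (SE 0.265, adjusted p = 0.0308) in even-numbered rats. Under the replicate block both even-numbered calls were lost (adjusted p = 0.0508 and 0.132). They were lost as well without SAT of rat 2, 6 or 10, and the first without BAT of rat 2, 6, 8 or 12 and the second without VAT of rat 2, 4, 10 or 12, with an adjusted p of up to 0.0805. The call in odd-numbered rats was lost without BAT of rat 1 or 7 (adjusted p = 0.0563 and 0.0549).

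Cartilage and skin collagens were found in SAT. Col2a1, the fibril of cartilage, stood at 39.7, 44.6, 7.24, 21.2 and 18.9 TMM CPM in SAT of even-numbered sham rats 2, 6, 8, 10 and 12 and at 0 in all 6 BAT libraries. From 1109 reads against the limit of 3 that a count of 0 over the group allows, it was at least 284-fold higher in SAT. VAT of the same rats held 1 read, a ratio of 1240 (95% counting interval 223 to 49100). No depot difference of Col2a1 was called in odd-numbered sham rats. Col9a2, which decorates cartilage fibrils, was at 7.78, 17.3, 7.90, 12.8 and 7.62 in SAT of even-numbered rats, at 0.167 to 2.54 (median 1.28) in BAT and at 0.720 to 1.10 (median 0.909) in VAT. SAT overlapped with neither, and SAT minus VAT was 3.52 (SE 0.322, adjusted p = 1.67e-05, edgeR). In odd-numbered rats SAT minus VAT was 2.07 (SE 0.418, adjusted p = 0.011) and BAT minus SAT −1.61 (SE 0.434, adjusted p = 0.00709).

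Chondrocyte markers summed to 33.01 to 63.04 TMM CPM in SAT of even-numbered sham rats and to 1.606 to 72.32 in SAT of odd-numbered sham rats. The lowest of the latter was rat 9, where Col2a1 was at 0, and the highest rat 1, with Col2a1 at 11.7. These odd-numbered sums ranked the rats in the same order as the epithelial sums. In even-numbered sham SAT the chondrocyte sum was lowest in rat 2 and Col2a1 in rat 8, and both were highest in rat 6. In SAT of odd-numbered PCB 52 rats the sum was highest in rat 19 (122.8), and Col2a1 was highest in rat 17 (53.42), with a sum of 80.7. Of the 6 chondrocyte markers Matn1 was at 0 throughout even-numbered sham SAT and Hapln1 throughout odd-numbered sham SAT. In sham BAT and VAT the chondrocyte sum was 0.6632 to 24.92. The part of cartilage tissue in the SAT levels was not tested.

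Col17a1, which anchors epidermal cells to their basement membrane, stood at 162, 207, 58.2, 111 and 86.2 TMM CPM in SAT of even-numbered sham rats 2, 6, 8, 10 and 12, against 1.27 to 4.19 (median 2.58) in BAT and 3.61 to 7.35 (median 5.47) in VAT. SAT overlapped with neither, while BAT and VAT overlapped. BAT minus SAT was −5.56 (SE 0.406, adjusted p = 2.65e-06, edgeR) and SAT minus VAT 4.47 (SE 0.342, adjusted p = 7.19e-06). Col17a1 was also called lower in BAT than in VAT, at −1.05 (adjusted p = 0.00587) in even-numbered and −2.21 (adjusted p = 7.72e-05) in odd-numbered rats. In odd-numbered SAT it ran from 6.56 in rat 9 to 89.4 in rat 1 (median 34.7), and the epithelial markers were also lowest in rat 9 (11.24) and highest in rat 1 (272000). For BAT minus SAT the log2 value was −4.34 there (SE 0.616, adjusted p = 8.86e-05). The difference SAT minus VAT was 2.13 (SE 0.566, adjusted p = 0.0325) and was lost without SAT of rat 1 or 11 or VAT of rat 1, 3, 5, 7 or 9, with an adjusted p of up to 0.0722. Epithelial markers summed to 5385 to 26070 in even-numbered sham SAT and to 1.272 to 659.5 over sham BAT and VAT. In even-numbered sham SAT both were highest in rat 6, while the epithelial sum was lowest in rat 12 and Col17a1 in rat 8. Rat 1 had a higher epithelial sum than any even-numbered sham SAT library, but less Col17a1 than rats 2, 6 and 10. The part of epithelium in the result was not tested.

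Col7a1, which forms the anchoring fibrils of skin, was called higher in BAT than in VAT in both sets of rats. In even-numbered sham rats it ran from 45.8 to 148 TMM CPM (median 102) in BAT and from 13.96 to 50.4 (median 20.99) in VAT, with slight overlap, and BAT minus VAT was 1.94 (SE 0.376, adjusted p = 0.000974, edgeR). In odd-numbered rats it ran from 48.8 to 128 (median 95.1) in BAT, from 15.5 to 28.0 (median 18.6) in SAT and from 3.11 to 43.7 (median 16.4) in VAT. BAT overlapped with neither. BAT minus SAT was 2.23 (SE 0.229, adjusted p = 4.9e-06) and BAT minus VAT 2.35 (SE 0.45, adjusted p = 0.000751). In even-numbered rats SAT minus VAT was 1.68 (SE 0.395, adjusted p = 0.00769).

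The basement membrane chain Col4a1 was highest in VAT and lowest in SAT of even-numbered sham rats. It ran from 2168 to 3327 TMM CPM (median 2849) in VAT and from 1107 to 2232 (median 1334) in BAT, and stood at 994, 722, 450, 482 and 476 in SAT of rats 2, 6, 8, 10 and 12. SAT overlapped with neither other depot. SAT minus VAT was −2.15 (SE 0.274, adjusted p = 0.000137, edgeR), BAT minus SAT 1.25 (SE 0.3, adjusted p = 0.00638) and BAT minus VAT −0.87 (SE 0.19, adjusted p = 0.00217). In odd-numbered rats no depot difference of Col4a1 passed, with values between −0.47 and −0.02. SAT was again split, with 2264, 2571, 1517 and 3081 in rats 3, 5, 7 and 9 and 534 and 518 in rats 1 and 11.

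Col4a3 and Col4a4 encode chains of a second type IV network, known from kidney and lung, and are head-to-head neighbours. Their promoters are shown because the windows of these neighbours overlap. The windows, from RefSeq on GRCr8, are chr9:91323740-91324039 on the plus strand for Col4a3 and chr9:91323528-91323827 on the minus strand for Col4a4. The annotated starts lie 413 bases apart and the windows share 88 bases upstream of both starts, in capitals.
Col4a3 promoter: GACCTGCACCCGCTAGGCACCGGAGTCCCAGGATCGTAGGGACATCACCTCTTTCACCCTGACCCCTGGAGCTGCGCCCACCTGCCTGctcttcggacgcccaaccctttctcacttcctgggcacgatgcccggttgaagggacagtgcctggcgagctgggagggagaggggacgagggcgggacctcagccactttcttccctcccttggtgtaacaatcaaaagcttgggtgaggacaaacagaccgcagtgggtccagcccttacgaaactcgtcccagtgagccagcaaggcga
Col4a4 promoter: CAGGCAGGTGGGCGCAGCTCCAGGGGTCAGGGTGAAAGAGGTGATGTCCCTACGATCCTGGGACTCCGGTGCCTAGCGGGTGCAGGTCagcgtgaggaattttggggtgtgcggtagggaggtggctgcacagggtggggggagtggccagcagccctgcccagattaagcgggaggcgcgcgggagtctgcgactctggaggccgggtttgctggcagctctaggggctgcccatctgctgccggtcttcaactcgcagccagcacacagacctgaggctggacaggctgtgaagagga

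Col4a3 ran from 13.01 to 29.8 TMM CPM (median 23.9) in VAT of even-numbered sham rats and from 11.7 to 49.8 (median 37.3) in VAT of odd-numbered ones. In SAT of even-numbered rats 2, 6, 8, 10 and 12 it stood at 1.06, 5.98, 0, 3.69 and 7.38, below all VAT libraries. For SAT minus VAT the log2 value was −2.65 (SE 0.666, adjusted p = 0.0109, edgeR) and −1.53 (SE 0.363, adjusted p = 0.0204) in even- and odd-numbered rats, and BAT minus VAT −1.20 (SE 0.258, adjusted p = 0.00192) and −1.70 (SE 0.302, adjusted p = 0.000283). Col4a4 passed in SAT minus VAT of even-numbered rats at −2.19 (SE 0.675, adjusted p = 0.029) and in BAT minus VAT of odd-numbered rats at −0.86 (SE 0.269, adjusted p = 0.0144). The first of these was lost without SAT of rat 2 or 10 or VAT of rat 2, 6, 10 or 12, with an adjusted p of up to 0.0606.

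The multiplexins of the outer basement membrane were also highest in VAT. Col15a1 ran from 734 to 1739 TMM CPM (median 1282) in VAT of even-numbered sham rats and from 154 to 468 (median 240) in BAT, with 226, 134, 305, 130 and 122 in SAT of rats 2, 6, 8, 10 and 12. VAT did not overlap with BAT or SAT. SAT minus VAT was −2.77 (SE 0.336, adjusted p = 0.000102, edgeR) and BAT minus VAT −2.15 (SE 0.312, adjusted p = 0.000133). In odd-numbered rats BAT minus VAT was −1.75 (SE 0.258, adjusted p = 5.88e-05), and SAT minus VAT was −0.85 (SE 0.454, adjusted p = 0.214), with SAT at 909, 697, 438 and 904 in rats 3, 5, 7 and 9 and at 172 and 148 in rats 1 and 11.

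**Figure D3:**
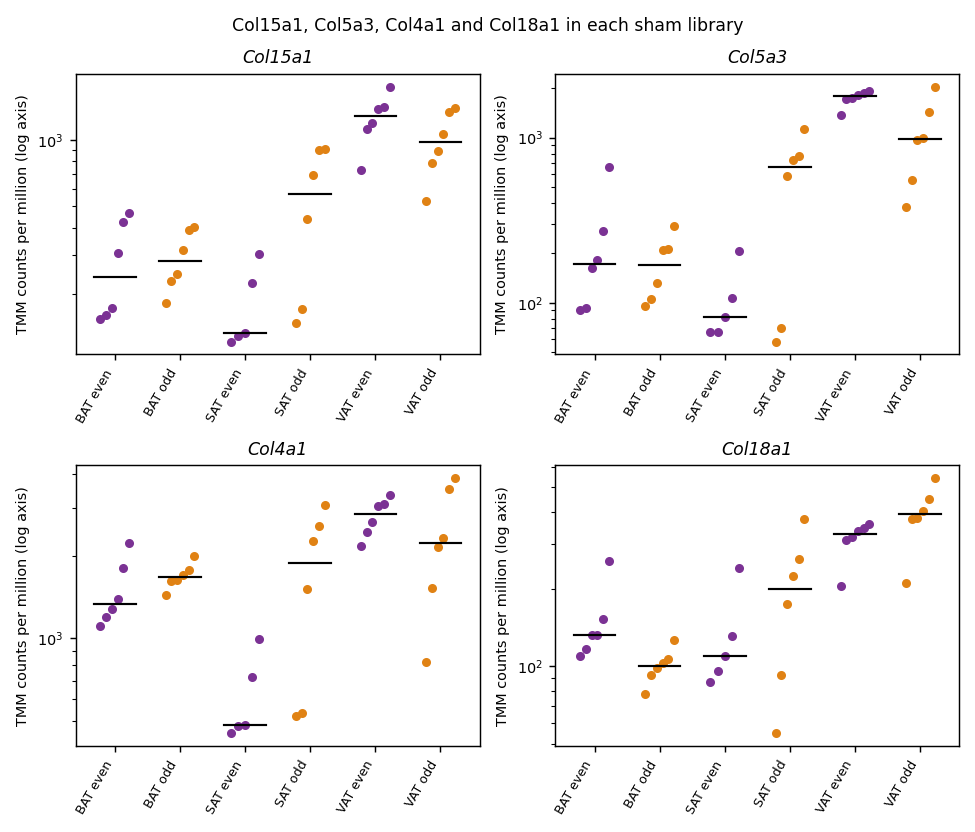
TMM CPM of Col15a1, Col5a3, Col4a1 and Col18a1 (y axes, logarithmic) in each sham library by depot and set of rats (x axes), purple for even-numbered and orange for odd-numbered rats, with lines at group medians. SAT of odd-numbered rats falls apart into 4 high and 2 low libraries, for Col5a3 at 587 to 1124 and at 58.1 and 70.3.

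Col18a1, whose end fragment is known as endostatin, ran from 207 to 359 TMM CPM (median 329) in VAT of even-numbered sham rats and from 212 to 542 (median 392) in VAT of odd-numbered ones, against 110 to 258 (median 132) and 77.8 to 127 (median 101) in BAT. BAT minus VAT was −1.04 (SE 0.201, adjusted p = 0.000987, edgeR) and −1.96 (SE 0.199, adjusted p = 2.02e-06), and in even-numbered rats SAT minus VAT was −1.23 (SE 0.281, adjusted p = 0.00649). The groups of the odd-numbered rats did not overlap in BAT and VAT. BAT minus SAT in odd-numbered rats was −0.95 (SE 0.366, adjusted p = 0.0414). That call was lost under the replicate block (adjusted p = 0.105), with no expression filter (0.0682) and without any single BAT library or SAT of rat 3, 5, 7 or 9, with an adjusted p of up to 0.137.

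Col6a2, a chain of the beaded filaments that surround adipocytes, was lower in BAT than in VAT. It ran from 298 to 714 TMM CPM (median 436) in BAT and from 515 to 1790 (median 960) in VAT of even-numbered sham rats, and from 369 to 721 (median 529) and 981 to 1890 (median 1364) in odd-numbered ones. The groups overlapped in even-numbered rats and did not in odd-numbered rats. BAT minus VAT was −1.19 (SE 0.312, adjusted p = 0.00687, edgeR) and −1.35 (SE 0.207, adjusted p = 8.15e-05).

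Col8a1, a network-forming chain of vessel walls, was called higher in BAT than in SAT of odd-numbered rats at 1.05 (SE 0.355, adjusted p = 0.023, edgeR) and higher in BAT than in VAT of even-numbered rats at 1.06 (SE 0.337, adjusted p = 0.0185). The first call was lost without BAT of rat 1 (adjusted p = 0.0581) and the second without BAT of rat 6 (adjusted p = 0.0589). Its levels were low, from 0 to 17.2 TMM CPM over the sham libraries.

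Among the FACIT genes, Col16a1 stood at 257, 240, 406, 208 and 156 TMM CPM in SAT of even-numbered sham rats 2, 6, 8, 10 and 12 and ran from 24.1 to 83.8 (median 47.4) in BAT and from 52.1 to 156 (median 117) in VAT. BAT was lowest and did not overlap with SAT. The difference BAT minus SAT was −2.38 (SE 0.368, adjusted p = 0.000378, edgeR) and −1.20 (SE 0.251, adjusted p = 0.00153) in even- and odd-numbered rats, and BAT minus VAT −1.12 (SE 0.323, adjusted p = 0.0115) and −1.23 (SE 0.235, adjusted p = 0.000517). The difference SAT minus VAT was 1.23 in even-numbered rats (SE 0.318, adjusted p = 0.0129) and lost its call under the replicate block (1.03, adjusted p = 0.106). Col14a1, which binds fibrils in dense connective tissue, was lower in BAT than in SAT, at −1.32 (SE 0.328, adjusted p = 0.00787) and −1.04 (SE 0.282, adjusted p = 0.00714), and SAT minus VAT was 1.22 in odd-numbered rats (SE 0.263, adjusted p = 0.0145).

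Col13a1, a membrane collagen of cell junctions, stood at 9.90, 12.2, 8.56, 13.9 and 4.65 TMM CPM in SAT of even-numbered sham rats 2, 6, 8, 10 and 12 and ran from 1.06 to 3.02 (median 1.77) in BAT and from 0.432 to 4.77 (median 1.39) in VAT. BAT did not overlap with SAT. BAT minus SAT was −2.37 (SE 0.381, adjusted p = 0.000474, edgeR) in even-numbered and −1.43 (SE 0.471, adjusted p = 0.0204) in odd-numbered rats, the second being lost without BAT of rat 3 (adjusted p = 0.0518). SAT minus VAT was 2.17 in even-numbered rats (SE 0.59, adjusted p = 0.0163).

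Col6a4, Col9a1 and Col26a1 had 325, 200 and 117 reads over all 70 libraries and entered none of the tests between 2 depots of 1 set of rats. Col23a1, with 869 reads, entered 1 of them, SAT minus VAT in odd-numbered rats, at −0.20 (SE 0.435, adjusted p = 0.785, edgeR). Col9a1 had 39 reads in SAT of even-numbered sham rats against 2 in BAT and 3 in VAT, ratios of 15 (95% counting interval 3.87 to 128) and 14.6 (4.63 to 73.7). In odd-numbered rats it had 48 reads in SAT against 3 in BAT and 2 in VAT, ratios of 11.4 (3.67 to 57.1) and 26.4 (6.91 to 224). Col26a1 had 27 reads in SAT and 0 in BAT of even-numbered rats, at least 6.9-fold higher by the limit of 3 reads over the group. In odd-numbered rats it had 15 reads in SAT and 11 in BAT, at 0.345 and 0.355 CPM of the summed counts. These intervals and limits cover counting error only. Reads of Col6a4 cannot be told apart from those of Rpl29, which overlaps it in the annotation, and 14 of the 27 genes overlap some other annotated gene.

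Genes that fold, secrete, crosslink, break down or bind collagen were counted by list, beside the shares of all genes called in each comparison, which were 38.3% and 57.4% for BAT against SAT in even- and odd-numbered rats, 50.7% and 54.6% for BAT against VAT and 30.7% and 11.9% for SAT against VAT. No list was tested against other genes. Of 18 tested genes for secretion, propeptide processing and crosslinking (23 listed), 0 were higher and 8 lower in BAT than in SAT of even-numbered rats, and 0 and 12 in odd-numbered rats, with median log2 differences of −1.28 and −0.94. The lysyl oxidase Lox was lower in BAT than in SAT of odd-numbered rats among them, at −2.09 (SE 0.34, adjusted p = 0.000251, edgeR), and so was the fibril-binding proteoglycan Fmod, at −2.52 (SE 0.402, adjusted p = 0.000203). Against VAT, 0 and 7 of 18 were higher and lower in BAT of even-numbered rats, and 1 and 11 in odd-numbered rats. SAT minus VAT gave 6 higher and 2 lower of 19 in even-numbered and 4 higher and 0 lower of 18 in odd-numbered rats, with Loxl4, another lysyl oxidase, at 2.20 in the latter (SE 0.284, adjusted p = 0.000693).

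Of 21 tested genes for modification and folding of the chains (23 listed), 3 were higher and 7 lower in BAT than in SAT of even-numbered rats and 3 and 11 in odd-numbered rats. Plod2, the lysyl hydroxylase that prepares stable crosslinks, went against most of the list there, with BAT minus SAT at 3.10 (SE 0.406, adjusted p = 0.000112, edgeR) and 2.70 (SE 0.569, adjusted p = 0.0016). Its SAT minus VAT difference was −4.89 (SE 0.522, adjusted p = 4.56e-05) and −4.01 (SE 0.56, adjusted p = 0.00126). Against VAT, BAT had 2 higher and 10 lower genes in even-numbered and 2 and 12 in odd-numbered rats.

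Of 12 tested genes for collagen breakdown and its inhibitors (18 listed), 0 were higher and 6 lower in BAT than in SAT of even-numbered rats, and 0 and 7 in odd-numbered rats. Against VAT, 0 were higher and 3 lower in BAT of even-numbered rats, and 2 and 6 in odd-numbered rats. SAT minus VAT gave 4 higher and 1 lower in even-numbered and 2 and 0 in odd-numbered rats. Fap, a protease of activated fibroblasts, was higher in SAT than in VAT, at 2.13 (SE 0.224, adjusted p = 3.88e-05, edgeR) and 2.52 (SE 0.402, adjusted p = 0.00315), and so was Mmp14, a membrane-bound collagenase, at 1.61 (SE 0.273, adjusted p = 0.00103) and 0.87 (SE 0.259, adjusted p = 0.0455). Of 7 tested collagen receptors (11 listed), 2 were higher and 1 lower in BAT than in SAT of even-numbered rats, and 0 and 4 in odd-numbered rats. The higher ones were Cspg4, a proteoglycan of pericytes, at 1.71 (SE 0.31, adjusted p = 0.00112) and the integrin chain Itga1 at 1.85 (SE 0.635, adjusted p = 0.0372). Ddr1, a collagen-binding receptor kinase, was lower in both sets, at −3.11 (SE 0.594, adjusted p = 0.00159) and −2.22 (SE 0.454, adjusted p = 0.00131). Against VAT, 0 receptors were higher and 2 lower in BAT in each set of rats, and SAT minus VAT gave 1 higher and 2 lower in even-numbered and 0 and 0 in odd-numbered rats. Fibroblast and progenitor markers summed to 1186 to 3179 TMM CPM in sham BAT, 2585 to 8577 in sham SAT and 1523 to 5055 in sham VAT. Their part in the depot differences was not tested.

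Even- and odd-numbered sham rats were then compared within each depot. In BAT 0 of 19 tested collagen genes were called, against 0.0652% of all genes. Of these, 5 had an unadjusted p below 0.05, as did 727 of all 10730 genes tested. Col1a1 ran from 1218 to 5640 TMM CPM in even-numbered and from 4780 to 11850 in odd-numbered sham rats, overlapping, at 1.32 (SE 0.352, adjusted p = 0.34, edgeR). DESeq2 called it, with an adjusted p of 0.0263. Col1a2 was at 1.08 without passing.

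In SAT 1 of 24 tested collagen genes was called, against 1.09% of all genes, while 11 had an unadjusted p below 0.05, as did 2277 of all 11626 genes tested. The 127 genes behind that share became 563 without SAT of rat 8 and 15 without SAT of rat 5. The called gene was Col7a1, at 54.3, 93.3, 127, 102 and 49.1 TMM CPM in even-numbered rats 2, 6, 8, 10 and 12 and at 15.5 to 28.0 (median 18.6) in odd-numbered ones. All odd-numbered libraries were below all even-numbered ones, and odd minus even was −2.08 (SE 0.296, adjusted p = 0.0125, edgeR). Col13a1 at −1.76 (adjusted p = 0.0762), Col16a1 at −1.17 (0.0889), Col9a2 at −1.50 (0.112), Col5a3 at 2.42 (0.126) and Col15a1 at 1.57 (0.155) did not pass. DESeq2 called 7 collagen genes and 925 of all genes.

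In VAT 2 of 21 tested collagen genes were called, both higher in odd-numbered rats, against 11.5% of all genes. Col11a1 ran from 0.773 to 3.03 TMM CPM (median 1.505) in even-numbered and from 4.99 to 24.3 (median 14.6) in odd-numbered rats, without overlap, at 3.16 (SE 0.447, adjusted p = 0.00105, edgeR). Col8a1 ran from 1.70 to 6.27 (median 3.32) and from 5.61 to 10.47 (median 6.44), overlapping, at 1.08 (SE 0.277, adjusted p = 0.025). The Col8a1 call was lost without VAT of rat 3, 5, 8 or 12, with an adjusted p of up to 0.0584 (edgeR). Without VAT of rat 1 the number of collagen genes called rose to 6. The number of all genes called, 1291 in the main fit, ran from 844 to 1633 with 1 library left out. Col1a2 was at 0.93 without passing (adjusted p = 0.0811).

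Col13a1 in VAT rested on 1 library. It stood at 0.374, 0.279, 1.17, 2.03, 1.65 and 599 TMM CPM in odd-numbered sham rats 1, 3, 5, 7, 9 and 11. Its difference of 5.53 did not pass (adjusted p = 0.0706, edgeR) and was −0.96 without rat 11 (adjusted p = 0.372). Male reproductive tract markers summed to 335.6 in that library and to 0.6237 to 4.895 in the other 5. In VAT of odd-numbered PCB 52 rats Col13a1 was at 368 in rat 13 and 69.0 in rat 23, whose male tract sums were 150.1 and 284.2, and at 0 to 0.354 in rats 15, 17 and 19, with sums of 0.5899 to 1.07. Whether that tissue carried the Col13a1 reads was not tested.

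**Figure D4:**
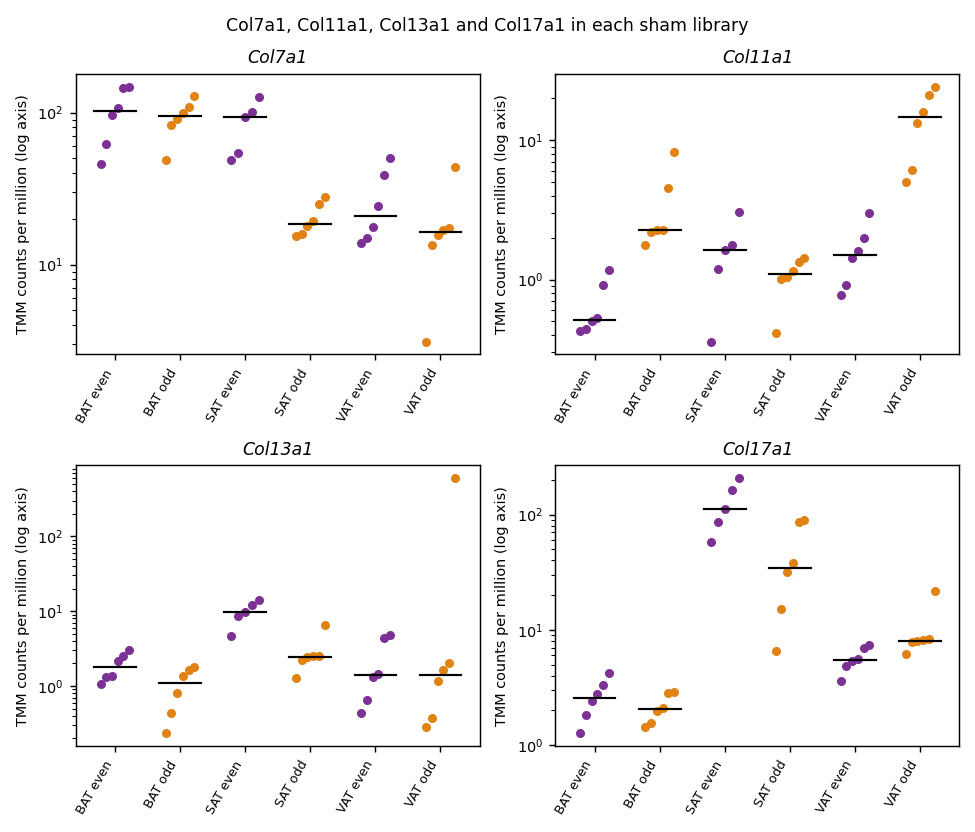
TMM CPM of Col7a1, Col11a1, Col13a1 and Col17a1 (y axes, logarithmic) in each sham library by depot and set of rats (x axes), purple for even-numbered and orange for odd-numbered rats, with lines at group medians. Col7a1 is lower in odd-numbered SAT (15.5 to 28.0) than in all even-numbered SAT libraries, Col11a1 is higher in odd-numbered than in even-numbered VAT, and for Col13a1 the single VAT library at 599 is that of rat 11.

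The difference between odd- and even-numbered rats was itself compared between depots with an interaction term. For BAT against SAT 2 of 24 tested collagen genes were called, against 1.63% of all genes: Col7a1 at 1.98 (SE 0.43, adjusted p = 0.0221, edgeR) and Col11a1 at 2.96 (SE 0.69, adjusted p = 0.0307). With the rat number as a block 0 were called, at 1.86 (adjusted p = 0.161) and 2.66 (adjusted p = 0.121). The Col11a1 call was also lost without BAT of rat 1, 2, 4, 9, 10 or 12 or SAT of rat 5 or 7, with an adjusted p of up to 0.0579. For BAT against VAT 0 of 22 were called, against 2.09% of all genes, with 4 at an unadjusted p below 0.05 and 1 called by DESeq2.

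For SAT against VAT 5 of 25 tested genes were called, against 11.1% of all genes. Col5a3 at 3.16 (adjusted p = 0.0167, edgeR) and Col15a1 at 1.94 (adjusted p = 0.0356) had a larger SAT minus VAT value in odd-numbered rats, and Col11a1 at −3.68 (adjusted p = 0.00221), Col17a1 at −2.33 (adjusted p = 0.0314) and Col13a1 at −7.28 (adjusted p = 0.022) a smaller one. With the rat number as a block 2 were called, Col11a1 (adjusted p = 0.0451) and Col17a1 (−2.55, adjusted p = 0.0291), and Col5a3 (2.96, adjusted p = 0.11), Col15a1 (1.91, adjusted p = 0.0879) and Col13a1 (−2.22, adjusted p = 0.367) were not. Without the libraries that stood apart 2 were called, Col11a1 and Col15a1, and Col5a3 (2.88, adjusted p = 0.0654), Col17a1 (−1.98, adjusted p = 0.0934) and Col13a1 (−1.05, adjusted p = 0.494) were not. Without VAT of rat 11 alone Col13a1 was at −0.80 (adjusted p = 0.558). Col17a1 was also lost without SAT of rat 5, 6 or 7 or VAT of rat 8 or 11, and Col15a1 without SAT of rat 3, 5, 6, 9, 10 or 12 or VAT of rat 2, 5, 6, 7, 8 or 11, with an adjusted p of up to 0.0644 and 0.0647.

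PCB 52 was compared with sham in each depot and set of rats, and no collagen gene passed in any of these 6 comparisons. The same held for all genes, so that 0% of the genes tested were called by edgeR's quasi-likelihood test in each. At an unadjusted p below 0.05 the counts of all genes were 388 and 1054 in BAT, 605 and 165 in SAT and 1066 and 715 in VAT of even- and odd-numbered rats, and those of collagen genes 0 and 1, 0 and 0, and 1 and 2. DESeq2 called 0, 14, 0, 0, 37 and 2 of all genes in the same order, and 0 collagen genes in any. Fitting both sets of rats together, and testing whether the treatment difference differed between odd- and even-numbered rats, also called 0 collagen genes and 0% of all genes in each depot, while DESeq2 called 85, 0 and 9 of all genes in the joint fits of BAT, SAT and VAT and 0, 0 and 12 in the tests of the difference.

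The median log2 difference of the tested collagen genes, PCB 52 minus sham, was −0.01 and 0.00 in BAT of even- and odd-numbered rats, 0.23 and −0.15 in SAT and 0.03 and −0.19 in VAT. In VAT of odd-numbered rats the 2 type I chains had an unadjusted p below 0.05. Col1a1 stood at 2046, 1496, 1394, 1814 and 1235 TMM CPM in PCB 52 rats 13, 15, 17, 19 and 23 and at 1208, 3806, 3236, 1619, 4384 and 3078 in sham rats 1, 3, 5, 7, 9 and 11. The groups overlapped, and the difference of −0.87 (SE 0.321, adjusted p = 0.747, edgeR) did not pass. Col1a2 was at 3276, 2343, 2560, 2926 and 2431 in PCB 52 and at 2046 to 7050 (median 4816) in sham rats, a difference of −0.76 (SE 0.266, adjusted p = 0.747). The difference was −0.98 and −0.85 without VAT of rat 13 (adjusted p = 0.364 and 0.361).

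**Figure D5:**
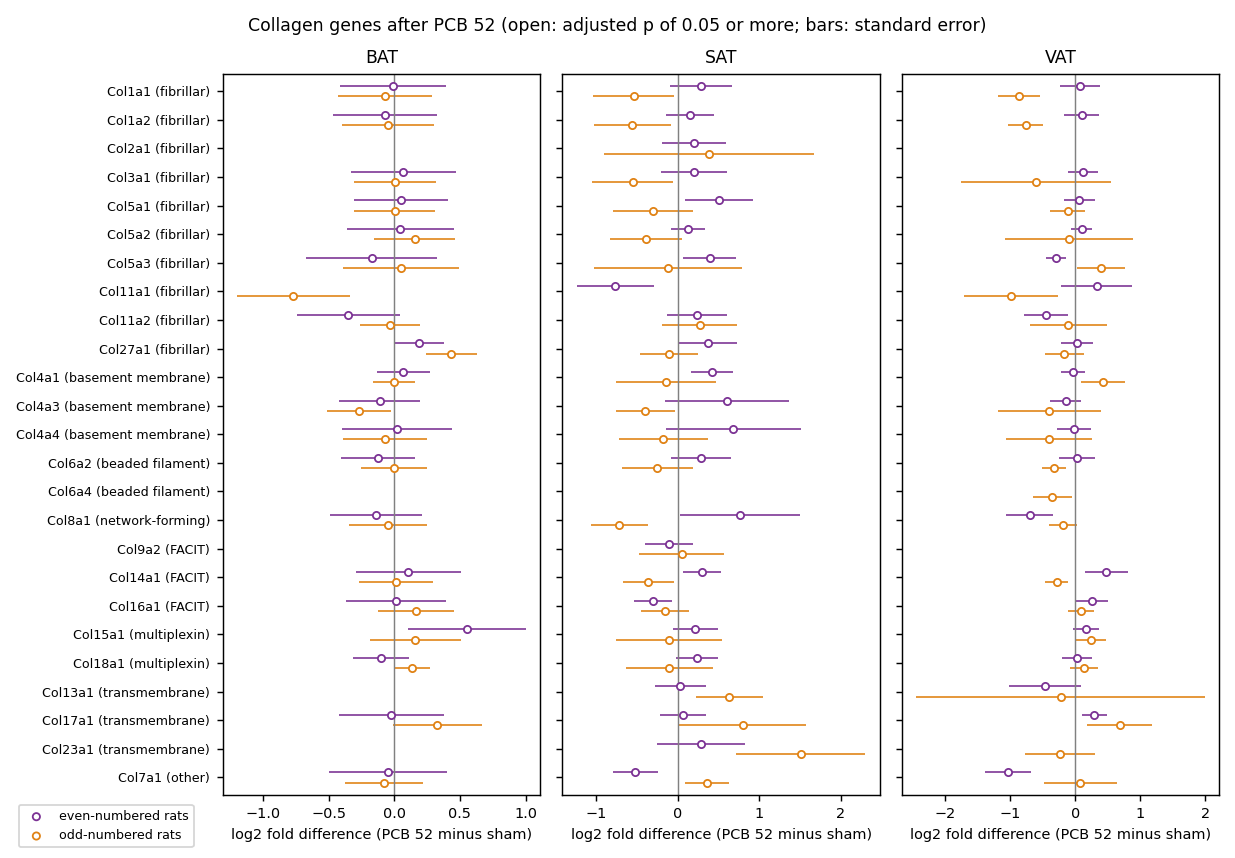
Log2 fold difference (x axis, PCB 52 minus sham) of each collagen gene tested (y axis, with its class) in BAT, SAT and VAT, purple for even-numbered and orange for odd-numbered rats; bars are standard errors. All points are open because no adjusted p was below 0.05, and Col1a1 and Col1a2 in VAT of odd-numbered rats are at −0.87 and −0.76.

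In even-numbered rats the type I values were alike in range, with Col1a1 at 1163 to 2599 TMM CPM (median 1675) in PCB 52 and 651 to 2702 (median 1780) in sham VAT. The difference between the sets of rats in the VAT treatment value was −0.94 for Col1a1 (SE 0.466, adjusted p = 0.468, edgeR) and −0.87 for Col1a2 (SE 0.39, adjusted p = 0.457). Col3a1, Col5a2, Col4a3 and Col4a4, all on chromosome 9, were at 0 reads in VAT of rat 13. With that library their differences in odd-numbered VAT were −0.60, −0.09, −0.40 and −0.40, and without it −0.28, 0.23, −0.08 and −0.08, none of them passing.

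Of the other genes with the smallest p, Col7a1 in VAT of even-numbered PCB 52 rats stood at 5.61 to 19.8 TMM CPM (median 12.8) against 13.96 to 50.4 (median 20.99) in sham, overlapping, at −1.04 (SE 0.351, adjusted p = 0.479, edgeR). In SAT it was at −0.52 in even-numbered rats (SE 0.277, adjusted p = 0.768), and the difference between the sets of rats in SAT was 0.86 (SE 0.391, adjusted p = 0.754). Col27a1 in BAT of odd-numbered rats was at 0.43 (SE 0.192, adjusted p = 0.486) and Col8a1 in SAT of odd-numbered rats at −0.72 (SE 0.348, adjusted p = 1). Within SAT of odd-numbered PCB 52 rats Col5a3 differed between libraries, as it did within the sham group. Rats 15 and 21, with adipocyte sums of 18490 and 20310, had Col5a3 at 969 and 1576. Rats 13, 17, 19 and 23, with sums of 2014 to 8272, had it at 61.4 to 302. The part of adipocytes in this spread was not tested.

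Pairs of collagen genes were compared for how they varied between libraries of a group, whether or not they share a fibril. Deviations from the group mean of log2(TMM CPM + 1) were correlated for 6 pairs in each depot, 18 relations in all, as a description of libraries that share depth, scaling and tissue mixture. Col1a1 and Col1a2 had Pearson's r of 0.996 in BAT (Spearman's rho 0.989, n = 24), 0.946 in SAT (rho 0.969, n = 23) and 0.949 in VAT (rho 0.905, n = 23), each with a permutation p of 1e-05, the smallest that 100000 permutations can give, and an adjusted p of 1.5e-05. Leaving out the 2 libraries farthest from the median of Col1a1 gave 0.993, 0.966 and 0.91. Col4a3 and Col4a4 had r of 0.621, 0.902 and 0.83 in BAT, SAT and VAT (n = 24, 23 and, without rat 13, 22; rho 0.607, 0.913 and 0.789; permutation p of r = 0.00154, 1e-05 and 1e-05; adjusted p = 0.00173, 1.5e-05 and 1.5e-05), and 0.573, 0.892 and 0.772 without the 2 farthest libraries. Col15a1 and Col5a3 had r of 0.902, 0.906 and 0.736 (rho 0.937, 0.829 and 0.669; adjusted permutation p = 1.5e-05, 1.5e-05 and 5.14e-05) and 0.893, 0.867 and 0.73 without the 2 farthest. Col1a1 and Col6a2, which share no fibril, had r of 0.874, 0.93 and 0.691 (rho 0.87, 0.897 and 0.756; adjusted permutation p = 1.5e-05, 1.5e-05 and 0.000372) and 0.858, 0.885 and 0.628 without the 2 farthest.

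For 2 other fibrillar pairs r was lower in VAT. Col1a1 and Col3a1 had r of 0.974 in BAT and 0.967 in SAT (rho 0.974 and 0.961; adjusted permutation p = 1.5e-05 for both), and 0.255 in VAT (n = 22 without rat 13; rho 0.545; permutation p = 0.251 for r and 0.00981 for rho, adjusted to the same values), where r was 0.0118 without the 2 farthest libraries. Col5a1 and Col5a2 had r of 0.963, 0.789 and 0.364 (rho 0.945, 0.843 and 0.562; adjusted permutation p = 1.5e-05, 4.15e-05 and 0.0961), and 0.945, 0.87 and 0.117 without the 2 farthest. The difference of these values between depots was not tested.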

How the data were processed

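The authors deposited read counts per gene, whole numbers, in 6 tables, 1 for each depot and set of rats, and the total count of a library was its sum over genes. The table for VAT of even-numbered rats held 5 extra spreadsheet lines, which were removed, and because of them its values were entered as estimated counts, as deposited. Reads were checked with FastQC and aligned with HISAT2 to rn6, per the submitters' processing notes. The counting program, annotation and strand setting were not given in the sources used here, and the labels name both poly(A) capture and ribosomal RNA removal without saying which was used. Symbols were taken from RefSeq (GRCr8) by gene identifier, which matched 15230 of 15319 genes.

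Counts were filtered (filterByExpr, minimum count 10, minimum total 15), scaled by TMM and tested with edgeR 4.0.16 (R 4.3.3, robust quasi-likelihood F test). P-values were adjusted by Benjamini-Hochberg over all genes tested, at 0.05. Levels are TMM CPM over all 70 libraries. Correlations used SciPy 1.17.1 with 100000 permutations. The test was checked on simulated counts with known changes. Alternatives were DESeq2 1.42.0, RLE scaling, no filter, plain totals for the levels, a replicate block, each library left out, and the 8 libraries that stood apart left out.

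The genes named are those past the threshold, the 5 of smallest p where fewer than 4 passed, a set of main chains, and up to 4 called genes of each pathway list. The members and lists were chosen with earlier results of these data known. Libraries of different depots with the same number were taken to be the same rat. Their deviations from the group means had a median correlation of 0.078 over 68 pairs (26 over 0.1), against −0.026 over 340 pairs of different rats (70 over 0.1). No library was identical to another over 170 pairs within groups. P-values were computed against the spread between the rats of a group. The main tests between depots and their interactions did not pair libraries of the same rat, which only the replicate block did.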

Additional observations from a re-analysis of the deposited data

Results flagged for a closer look

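A library far from the others of its group was found in 39 of 270 groups of collagen values checked. The criterion marks about 1 in 20 groups by chance where groups are independent, and values of several genes in 1 library are not. BAT of rat 24 (even-numbered, PCB 52) was the highest of its group for the share of counts on collagen genes, at 3.056%. It was also highest for Col1a1 (6521 TMM CPM), Col1a2 (7367), Col3a1 (10890), Col5a1 (648.6), Col5a2 (635.4), Col6a2 (761.9), Col8a1 (13.53), Col14a1 (590.1) and Col16a1 (108.5). Its fibroblast marker sum was 5028 against 1179 to 1737 in the others, and its brown adipocyte sum 401.4 against 8769 to 14820. Its skeletal muscle sum, 48560, was the highest of the group. The part of those cells was not tested.

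VAT of rat 13 (odd-numbered, PCB 52) stood at 0 for Col4a3, Col4a4 and Col5a2 and highest for Col13a1 (368.2) and Col17a1 (39.38). In VAT of odd-numbered sham rats, rat 11 was highest for Col7a1 (43.68), Col13a1 (598.8) and Col17a1 (21.84), and rat 9 for Col14a1 (336.9). In even-numbered sham VAT rat 4 was lowest for Col5a2 (296.9) and Col18a1 (206.5), and rat 6 lowest for Col5a3 (1377). In even-numbered PCB 52 VAT rat 20 was lowest for Col4a1 (1446) and rat 18 highest for Col11a1 (6.131).

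In SAT of odd-numbered sham rats, rat 11 was highest for Col11a2 (9.722) and Col13a1 (6.437). In the PCB 52 group of the same rats the highest libraries were rat 21 for Col1a1 (28430) and Col5a1 (1495), rat 17 for Col2a1 (53.42), rat 19 for Col23a1 (27.39) and rat 23 for Col11a2 (12.61). In even-numbered SAT the highest were sham rat 2 for Col5a3 (206.0) and Col18a1 (242.7), and PCB 52 rats 22 for Col18a1 (198.0) and 14 for Col13a1 (16.61). In sham BAT they were rat 4 for Col5a3 (661.0) and Col18a1 (257.8), rat 5 for Col4a4 (7.579) and rat 11 for Col11a2 (23.05).

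The difference between odd- and even-numbered sham rats was called as different between BAT and SAT, by the interaction term, for Col11a1 (2.96) and Col7a1 (1.98). Both calls were lost with the rat number as a block (adjusted p = 0.121 and 0.161, edgeR). Between SAT and VAT it was called for Col11a1 (−3.68), Col5a3 (3.16), Col15a1 (1.94), Col13a1 (−7.28) and Col17a1 (−2.33). Under the block the calls of Col5a3, Col15a1 and Col13a1 were lost (adjusted p = 0.11, 0.0879 and 0.367), and without VAT of rat 11 Col13a1 was at −0.80 (adjusted p = 0.558). Without the libraries that stood apart those of Col5a3, Col13a1 and Col17a1 were lost (adjusted p = 0.0654, 0.494 and 0.0934).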

How the results depend on the processing

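Of 83 calls of collagen genes, 60 passed under every alternative run, 23 were lost under at least 1, and 0 changed direction. DESeq2 gave no adjusted p for 2 of the 83, Col5a3 between BAT and VAT of even-numbered rats and Col13a1 in the interaction of SAT and VAT. The numbers of collagen genes called between depots stayed within 1.5 times the main count under the whole-comparison alternatives. Between odd- and even-numbered rats, DESeq2 called 1 in BAT and 7 in SAT. Without the libraries that stood apart 2 were called in SAT, and leaving out 1 library gave 1 to 2 in SAT and 1 to 6 in VAT. Over all genes, leaving out 1 library gave 15 to 563 in SAT and 844 to 1633 in VAT. For the interactions, the replicate block gave 0 between BAT and SAT and 2 between SAT and VAT. Leaving out the libraries that stood apart gave 2 between SAT and VAT, and DESeq2 1 between BAT and VAT. Leaving out 1 library gave 1 to 3, 0 to 1 and 2 to 6 for BAT and SAT, BAT and VAT, and SAT and VAT.

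The VAT difference of Col13a1 between odd- and even-numbered rats turned to −0.7293 without the libraries that stood apart, and ran from −0.9596 to 5.93 with 1 library left out. The treatment difference of Col5a2 in odd-numbered VAT turned to 0.2406 without the libraries that stood apart and ran from −0.26 to 0.2286 with 1 left out. Rat 11 and rat 13 respectively were the libraries that turned them. The cause of the other changes was not tested.

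Counts over all genes moved more. With DESeq2 they went from 7 to 66 and from 127 to 925 between odd- and even-numbered rats in BAT and SAT, from 1342 to 2286 between SAT and VAT of odd-numbered rats, and from 194 to 636 and 242 to 488 in the interactions with BAT. With the replicate block they fell from 3544 to 1935 between SAT and VAT of even-numbered rats and from 1341 to 375 and 194 to 10 in the interactions of SAT with VAT and BAT. Of 324 mean levels, 15 moved by over 1 SD with plain totals. Depth limits Col6a4, Col9a1 and Col26a1, which had few reads and entered few or none of the tests.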
